A study of Mus musculus with 12 samples.

Results

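RNA of MIN6 clone 4 cells at high passage (C4-HP) was compared with RNA of the parental MIN6 cells at low passage (Pr-LP). MIN6 is a β-cell line from an insulinoma of a transgenic mouse, and clone 4 is a subclone taken from low-passage parental cells by limiting dilution, so that the clone 4 cells descend from 1 cell. The C4-HP cells were at passages 40 to 50 and the Pr-LP cells at passages 17 to 20, and both were kept in the same high-glucose medium. The comparison was chosen by these 2 sample descriptions alone and uses 6 of the 12 arrays, 1 array for each population on each of the 3 chips (A, B, C) in the MG-U74 version 2 set of Affymetrix. The other 6 arrays, of parental cells at passages 35 to 40 (Pr-HP) and of clone 4 cells at passages 17 to 20 (C4-LP), show where the other populations lie, and also enter the choice of the probe set that stands for a gene in counts of genes. The 2 populations compared differ in clone and in passage, and these cannot be told apart. The study classed both as cells that secrete insulin in response to glucose. It also reported a better response to glucose and to the drug glybenclamide in both clone 4 populations than in Pr-LP. The comparison thus describes how far RNA levels differed between a pair of populations that both responded, though not equally.

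In β cells, glucose enters through a facilitative transporter (GLUT2, the product of Slc2a2, in the mouse) and is broken down in glycolysis and mitochondria. The rise in ATP closes the KATP channel, calcium enters, and insulin granules fuse with the plasma membrane. The cells make so much proinsulin that they depend on the folding enzymes of the endoplasmic reticulum (ER), and lines such as MIN6 are known to drift as they are passaged.

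With 1 array per population and chip there was no replicate of a culture, so no test could be made and no p-value or error of a condition is given. The values are the deposited probe set intensities in arbitrary units. A ratio is C4-HP over Pr-LP, and "lower" folds are Pr-LP over C4-HP. Values under the 20th percentile of their chip (67.3 units for chip A, 58.6 for chip B and 29.1 for chip C) were raised to it before a ratio was taken, and a fold against such a value is written as "at least". Where 2 intensities are set against each other, Pr-LP comes before C4-HP. A probe set counts as measured where the higher of its 2 values reached 100 units, and a gene with several probe sets is counted by the one with the highest mean over the 4 populations.

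The only repeated measurement comes from 37 control probe sets that are present on all 3 chips, for RNA of the cells or for spiked controls. Whether the chips of a population received the same labelled RNA is not stated in the sources used here. The log2 ratio of such a probe set had a pooled SD of 0.12 over the chips. Its largest range was 0.50, which is 1.42-fold, in a spiked control. This spread mixes both kinds of control and does not measure the spread between cultures. All but 3 of the control probe sets had log2 ratios between -0.50 and 0.39. The others belong to the transferrin receptor, the membrane protein that takes up iron-bound transferrin, and were 2.06- to 2.70-fold lower in C4-HP on every chip. The medians of Pr-LP and C4-HP were 215 and 216 units on chip A, 162 and 163 on chip B and 93.1 on both arrays of chip C. The 3′ to 5′ ratios of Gapdh, a sign of RNA quality, were 1.05, 1.01 and 1.19 in Pr-LP and 1.01, 1.09 and 1.31 in C4-HP on chips A, B and C.

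**Figure D1:**
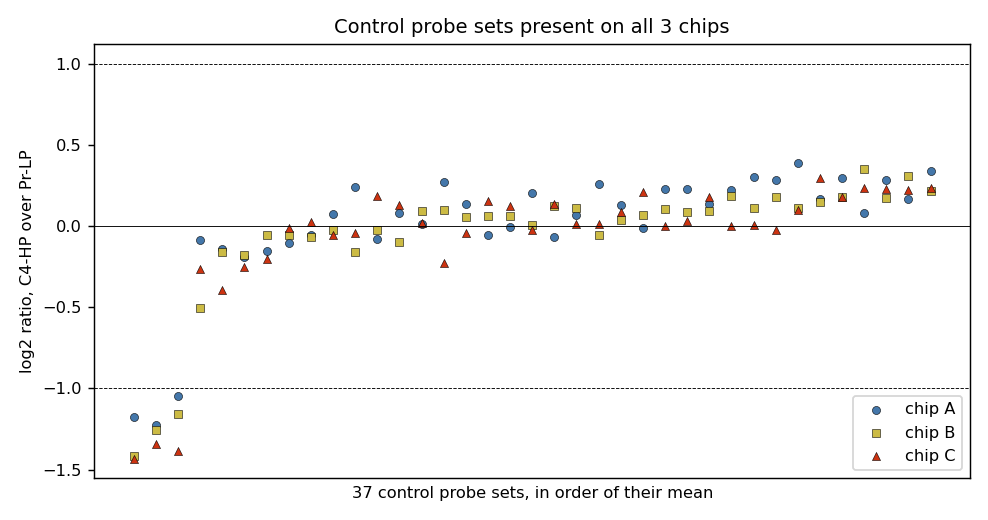
Each position on the x axis is 1 of 37 control probe sets, ordered by its mean, and the y axis gives the log2 ratio of C4-HP over Pr-LP on chips A, B and C (dashed lines mark 2-fold). The 3 probe sets at the far left belong to the transferrin receptor and lie between -1.43 and -1.04, while the others lie between -0.50 and 0.39.

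RNA levels of C4-HP and Pr-LP lay close to each other for most genes. Of 23371 measured probe sets, 95.3% lay within 1.5-fold and 98.7% within 2-fold, with a median log2 ratio of 0.00 and an SD of 0.29. More than 3-fold differences were found in 68 probe sets, of which 36 (0.154% of those measured) were higher and 32 (0.137%) lower in C4-HP. More than 2-fold differences were found in 154 probe sets that were higher (0.659%) and in 157 that were lower (0.672%). Differences past 5-fold were found in 12 probe sets that were higher (0.0513%) and in 4 that were lower (0.0171%). Counted by gene, 16 of 12583 measured genes (0.127%) were more than 3-fold higher and 21 (0.167%) lower. Of the 6 pairs that the 4 populations form, this pair had the fewest probe sets past 3-fold, but at 2-fold it had 311 and C4-HP and C4-LP 302, with SDs of 0.29 in both. Past 3-fold the other pairs had 79 (C4-HP and C4-LP), 153 (C4-LP and Pr-LP), 190 (C4-HP and Pr-HP), 211 (C4-LP and Pr-HP) and 252 (Pr-HP and Pr-LP). The pairs share arrays, so these counts are not independent of each other. Dim probe sets contributed most, since 28 of the 68 came from the dimmest of 4 equal groups of measured probe sets and 13, 13 and 14 from the brighter ones.

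**Figure D2:**
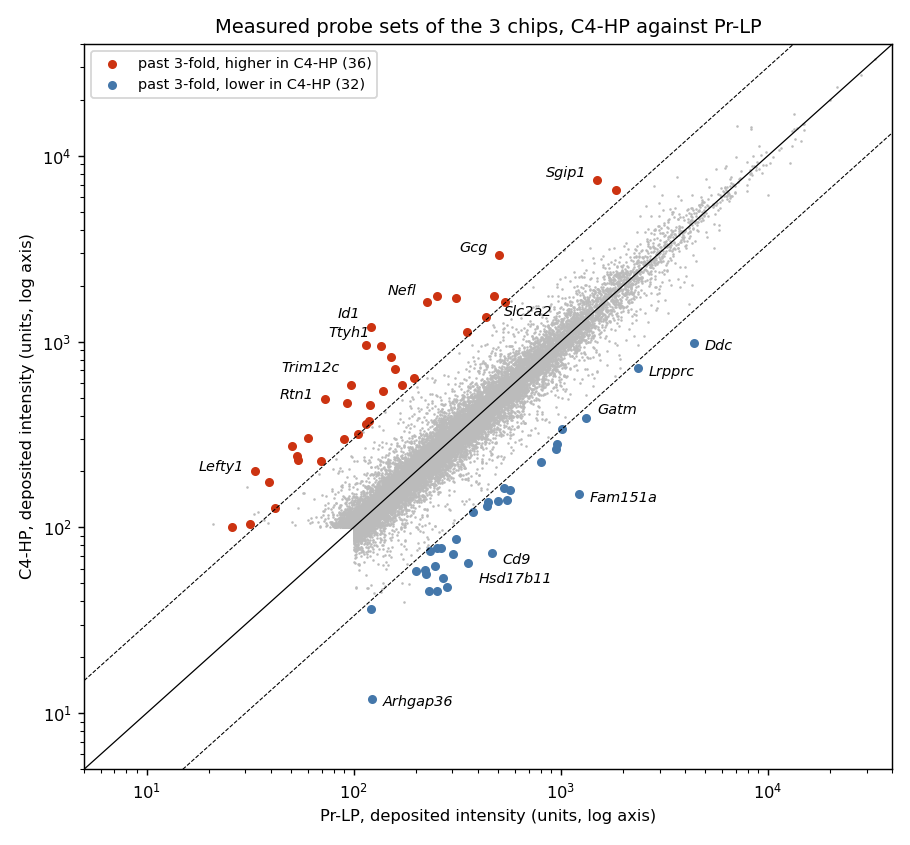
Intensities of the measured probe sets in Pr-LP (x axis) and C4-HP (y axis), both in units on a log axis, each point a probe set with its deposited value. The solid line marks equal values and the dashed lines 3-fold, and 36 coloured points lie above and 32 below these lines.

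With the floor applied, the largest ratio was that of Id1, which encodes an inhibitor that binds E proteins and keeps them from activating transcription with partners such as Neurod1. Its intensity was 121 in Pr-LP, 1541 in Pr-HP, 926 in C4-LP and 1201 in C4-HP, so that C4-HP was 9.91-fold above Pr-LP. Pr-LP alone was low, and the other 3 populations lay between 926 and 1541 units. Arhgap36 (123 in Pr-LP, 82.0 in Pr-HP, 15.7 in C4-LP and 11.9 in C4-HP) has only a bound, at least 4.22-fold lower, so its order against Id1 is not known. The related Id3 (412 in Pr-LP, 1402 in Pr-HP, 649 in C4-LP and 943 in C4-HP) was 2.29-fold higher in C4-HP, and Id2 (961 in Pr-LP, 1107 in Pr-HP, 1433 in C4-LP and 1956 in C4-HP) 2.03-fold. In the list of Id proteins and of bone morphogenetic protein (BMP), Nodal and TGF-β signalling, these were the 3 of 32 measured genes past 2-fold in this direction, where 0.62% of all measured genes were, and the list's median log2 ratio was -0.05. In the opposite direction 1 member passed 2-fold, where 0.771% of all genes did. It was Bambi, a pseudoreceptor that blocks BMP and TGF-β receptors, with 440.4 in Pr-LP, 137 in Pr-HP, 194 in C4-LP and 130.4 in C4-HP, 3.38-fold lower in C4-HP. Tgfb1, the ligand TGF-β1, was at 418 against 228 (1.84-fold lower). Lefty1, a secreted inhibitor of Nodal, was 6.04-fold higher by 1 probe set (33.5 in Pr-LP, 22.6 in Pr-HP, 256 in C4-LP and 202 in C4-HP), high in both clone 4 populations. Its other measured probe sets gave log2 ratios of 0.50, -0.15 and -0.06, so that the difference rests on 1 of 4 probe sets.

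Several genes that are best known from neurons were higher in C4-HP. Nefl, the light neurofilament chain, gave 225 in Pr-LP, 2971 in Pr-HP, 431 in C4-LP and 1637 in C4-HP, a 7.27-fold difference, and at least 4.50-fold with another probe set (59.9 against 303). The remaining probe set of Nefl was dim and gave 1.19-fold (62.6 against 74.6). Rtn1, a reticulon of the neuronal ER, was at 72.6 in Pr-LP, 936 in Pr-HP, 949 in C4-LP and 490.2 in C4-HP, so that Pr-LP was low and C4-HP 6.75-fold higher. Another probe set of Rtn1 gave 1.52-fold. For Ttyh1, a membrane protein of the tweety family, C4-HP was 7.01-fold higher (135 in Pr-LP, 206 in Pr-HP, 2120.3 in C4-LP and 948 in C4-HP) and 3.25-fold higher with another probe set, and both clone 4 populations stood above both parental ones. Dcx, the microtubule protein doublecortin of migrating neurons, stood at 535 in Pr-LP, 1371 in Pr-HP, 1353 in C4-LP and 1628 in C4-HP, and C4-HP was 3.04-fold above Pr-LP. Slitrk5, a synaptic adhesion protein, was 2.82-fold higher (227 in Pr-LP, 275 in Pr-HP, 1611 in C4-LP and 639 in C4-HP).

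Of the 45 measured genes in the list of neuronal cytoskeleton and neurite genes, these 5 were more than 2-fold higher and 1 was lower, against 0.62% and 0.771% of all genes. The lower one was Uchl1, a ubiquitin hydrolase abundant in neurons, with 867 in Pr-LP, 1077 in Pr-HP, 295 in C4-LP and 308 in C4-HP (2.82-fold lower). The list did not move as a whole, since its median log2 ratio was 0.06 and 33 of the 45 lay within 1.5-fold. Nefm, the medium neurofilament chain, was at 459 against 865 (1.88-fold), Gap43, a protein of growth cones, at 119 against 230.5 (1.94-fold) and Tubb3, a tubulin used as a marker of neurons, at 1994 against 2599.6 (1.30-fold). Basp1, a membrane protein of nerve terminals, was 4.47-fold higher with 1 probe set (159 in Pr-LP, 1283 in Pr-HP, 299 in C4-LP and 710.2 in C4-HP), while its other probe sets had log2 ratios between -0.05 and 0.00. Nrcam, a neuronal cell adhesion molecule, was 3.05-fold higher (105 in Pr-LP, 1139 in Pr-HP, 333 in C4-LP and 319.9 in C4-HP). Dclk1, a kinase related to doublecortin, had 5 measured probe sets, all higher in C4-HP, from 1.15- to 3.31-fold.

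**Figure D3:**
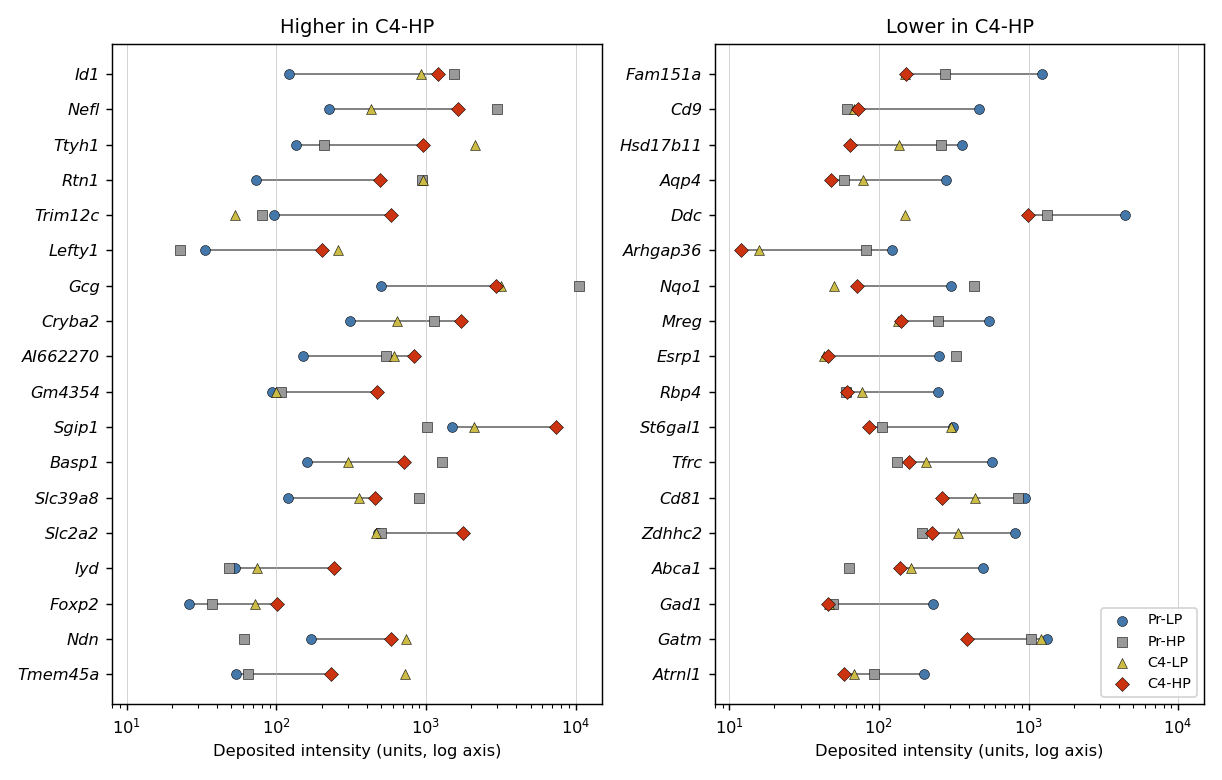
Intensity (units, log axis) of the 18 named genes with the largest ratios in each direction, with the floor applied, in the 4 populations, 1 probe set a gene, with a line from Pr-LP to C4-HP. The grey squares (Pr-HP) and yellow triangles (C4-LP) lie near C4-HP in some rows, as for Rtn1 or Cd9, and near Pr-LP in others, as for Slc2a2.

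Among the hormones, the insulin probe sets gave near-equal intensities. Ins2 was at 14771 against 14919.7 in Pr-LP and C4-HP and Ins1 at 28132 against 27215, differences of 1.01- and 1.03-fold. These are among the brightest probe sets, and the study considered that they may lie outside the linear range of the arrays. Near-equal intensities thus do not show equal RNA levels. By quantitative RT-PCR the study found no significant difference of Ins2 among the populations, and much lower Ins1 in Pr-HP than in the others. The Ins1 probe set is unnamed in the array annotation and was named from a table of the study that gives no probe set names. Iapp, the amyloid peptide secreted with insulin, was at 8291 against 8110.5 (1.02-fold).

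Glucagon RNA differed widely. Gcg, the hormone gene of α cells, gave 502 in Pr-LP, 10552 in Pr-HP, 3175 in C4-LP and 2915 in C4-HP, a 5.81-fold higher value in C4-HP than in Pr-LP. With another probe set the values were 50.6 in Pr-LP, 2244 in Pr-HP, 346 in C4-LP and 275 in C4-HP, at least 4.08-fold. Pr-LP was thus the lowest of the 4 populations in both, and Pr-HP the highest. Ttr, transthyretin, which is also expressed in α cells, stood at 435 in Pr-LP, 248 in Pr-HP, 3135 in C4-LP and 1362 in C4-HP (3.13-fold), high in clone 4 only. Pdyn, the prodynorphin precursor of opioid peptides, had the same order with 735 in Pr-LP, 473 in Pr-HP, 4297 in C4-LP and 1966 in C4-HP (2.67-fold). Vgf, a granin-like precursor of secreted peptides, was at 2575 in Pr-LP, 6851 in Pr-HP, 9145 in C4-LP and 5395 in C4-HP (2.10-fold). Together these were 4 of the 19 measured hormone and peptide genes past 2-fold, all in the direction in which 0.62% of all genes lay, while the other 15 lay within 1.5-fold and the list's median was -0.01.

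Among the markers of α cells fixed for this comparison, Gcg, Ttr and Irx1 were measured among the named probe sets. Their summed level was 1203 units in Pr-LP and 4553 in C4-HP, a sum over unlike probe sets in which Gcg went from 502 to 2915. Irx1, a homeobox factor, was at 266 against 276 (1.04-fold). Gc, the vitamin D-binding protein, is unnamed in the array annotation and was named from a supplement of the study, with 241 in Pr-LP, 70.9 in Pr-HP, 355 in C4-LP and 373 in C4-HP (1.55-fold). Whether single cells or the whole population carried glucagon RNA was not tested, since in bulk RNA more cells of a type and more RNA per cell cannot be told apart.

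Genes of granules and prohormone processing differed in both directions. Ptprn, a granule membrane protein known as IA-2, had 3638 in Pr-LP, 5765 in Pr-HP, 12536 in C4-LP and 7701 in C4-HP (2.12-fold higher in C4-HP), and Pcsk1, the convertase PC1/3, 425 in Pr-LP, 1379 in Pr-HP, 759.8 in C4-LP and 771 in C4-HP (1.81-fold). The inhibitor of that convertase, Pcsk1n, was at 4505 in Pr-LP, 1205 in Pr-HP, 2588 in C4-LP and 2706 in C4-HP (1.66-fold lower). Cyb561, the cytochrome that carries electrons into granules, was 2.12- and 2.13-fold higher with 2 probe sets. Of 17 measured members of the list, Ptprn and Vgf passed 2-fold, where 0.62% of all genes did in this direction. Within 1.5-fold lay 12 (70.6%, against 94.7% of all genes). A higher value in C4-HP was seen in 6 members (35.3%, against 50.1% of all genes) and a lower one in 11. The median was -0.11.

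The steps that couple glucose to secretion showed 1 large difference. Slc2a2, the glucose transporter GLUT2, gave 478 in Pr-LP, 499 in Pr-HP, 464 in C4-LP and 1754 in C4-HP, so that C4-HP was 3.67-fold above Pr-LP. The other 3 populations lay between 464 and 499 units, and C4-HP stood alone. Of 49 measured genes of glucose uptake, glycolysis and the TCA cycle, Slc2a2 was the only one past 2-fold by the probe set with the highest mean, where 0.62% of all genes were higher by as much. Within 1.5-fold lay 40 (81.6%, against 94.7% of all genes), while 8 were more than 1.5-fold higher (16.3%, against 2.58%), and the median was 0.06. Gpd2, the mitochondrial glycerol-3-phosphate dehydrogenase that passes electrons from glycolysis to the respiratory chain, was higher in C4-HP with all 5 of its probe sets. Their folds were 1.82, 2.00, 2.05, 2.38 and 2.62, and the brightest gave 969 in Pr-LP, 1319.5 in Pr-HP, 989 in C4-LP and 1768 in C4-HP. Fh1, fumarase, was 1.90-fold higher (1114 against 2111), and Ldha, lactate dehydrogenase A, 1.62-fold (358 in Pr-LP, 3059 in Pr-HP, 1397 in C4-LP and 580.3 in C4-HP).

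In the channel and the exocytosis machinery few genes passed 2-fold. Kcnj11 and Abcc8, the subunits of the KATP channel, were at 899.9 against 967 and 1185 against 1073 (1.08-fold higher and 1.10-fold lower). None of 36 measured genes of ion channels and calcium handling passed 2-fold, and 34 lay within 1.5-fold (94.4%, against 94.7% of all genes). In the list of 45 measured exocytosis genes, Scgn, the calcium-binding protein secretagogin, was the only one past 2-fold, with 4283 in Pr-LP, 464 in Pr-HP, 1082 in C4-LP and 2009 in C4-HP (2.13-fold lower). Of these 45 genes, 38 lay within 1.5-fold (84.4%), and 4 were more than 1.5-fold higher (8.89%, against 2.58% of all genes) and 3 lower (6.67%, against 2.71%). Rph3al, a Rab effector of granules, lay just inside with 1263 against 632 (2.00-fold lower). Snap25, a SNARE protein of the plasma membrane, was 1.69-fold higher (442 against 745), Vamp2, the SNARE of the granule, 1.53-fold (1329 against 2029) and Syt5, a synaptotagmin, 1.89-fold (1017 against 1919.7). Stx1a was at 228 against 189 (1.21-fold lower). Among 48 receptors, G proteins and cAMP enzymes, the cAMP phosphodiesterase Pde4b was past 2-fold (399 in Pr-LP, 1317 in Pr-HP, 757 in C4-LP and 819.9 in C4-HP, 2.05-fold higher) and 44 lay within 1.5-fold (91.7%).

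Several genes that the study listed from these same arrays, as higher in the mean of the other populations than in Pr-HP, differed little here. Dlk1, an imprinted membrane protein, was at 12820.3 in Pr-LP, 395 in Pr-HP, 15871 in C4-LP and 9139 in C4-HP (1.40-fold lower in C4-HP). Plagl1, an imprinted zinc finger factor, stood at 1605 in Pr-LP, 109.8 in Pr-HP, 1605 in C4-LP and 1677 in C4-HP (1.04-fold), with 1.21- to 2.06-fold in its other probe sets. Syt7, a calcium sensor of exocytosis, was at 1002 in Pr-LP, 647 in Pr-HP, 971 in C4-LP and 958 in C4-HP (1.05-fold lower). Another of its probe sets gave 696 in Pr-LP, 191 in Pr-HP, 559 in C4-LP and 550 in C4-HP (1.27-fold lower). The remaining ones gave 1.06-fold lower and 1.15-fold higher values in C4-HP. Larger differences were seen for Hepacam2, a membrane protein of the immunoglobulin superfamily (2979 against 1830.1, 1.63-fold lower), for Mlxipl, the glucose-responsive factor ChREBP (1344 against 708, 1.90-fold lower), and for Cd24a, a surface glycoprotein (2627 against 1279, 2.05-fold lower). In each of these 3 genes C4-HP lay far above Pr-HP, which had 119, 113 and 104 units. The genes were listed for such a difference, so this follows from their choice and is no separate result.

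Transcription factors of the islet were lower in C4-HP more often than higher. Neurod1 was at 604 in Pr-LP, 211 in Pr-HP, 264 in C4-LP and 288 in C4-HP (2.10-fold lower), and another probe set gave 1.21-fold. Pax6 (942 against 518, 1.82-fold lower), Nkx2-2 (2409 against 1501, 1.60-fold lower) and Sox4 (1356 against 817, 1.66-fold lower) were past 1.5-fold. So 5 of 23 measured members were more than 1.5-fold lower and 1, Nkx6-2, was higher (1.56-fold), against 2.71% and 2.58% of all measured genes. Pdx1, the factor of pancreas and β cells, was at 701 against 570.0 (1.23-fold lower). The list's median log2 ratio was -0.06, and it was -0.28 with a minimum of 200 units and -0.24 without the probe sets that may cross-hybridise.

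ER folding genes shifted together by small amounts. Of 36 measured members of the list of ER folding and the unfolded protein response, 34 had a higher value in C4-HP than in Pr-LP, where 50.1% of all measured genes did. More than 1.5-fold higher were 12 members (33.3%) and none was lower by as much, against 2.58% and 2.71% of all genes. The median log2 ratio of 0.37 was the highest of the 22 lists. More than 2-fold higher were 3 members. Kdelr3, a receptor that returns ER proteins from the Golgi, had 171 in Pr-LP, 69.1 in Pr-HP, 1409.6 in C4-LP and 487 in C4-HP (2.84-fold), Sdf2l1, a cofactor of ER chaperones, 618 in Pr-LP, 1218 in Pr-HP, 2495 in C4-LP and 1483 in C4-HP (2.40-fold), and Dnajb9, a co-chaperone of BiP, 432 in Pr-LP, 752 in Pr-HP, 1609 in C4-LP and 954 in C4-HP (2.21-fold). C4-LP was the highest of the 4 populations in all 3. The chaperone BiP itself (Hspa5) was at 2547 in Pr-LP, 3158 in Pr-HP, 4840.3 in C4-LP and 3867 in C4-HP (1.52-fold), the disulfide isomerase Pdia6 at 1707 in Pr-LP, 3700.4 in Pr-HP, 3907 in C4-LP and 3143 in C4-HP (1.84-fold), the co-chaperone Dnajc3 at 363 in Pr-LP, 547 in Pr-HP, 939 in C4-LP and 698 in C4-HP (1.92-fold) and Creld2, a secreted ER stress protein, at 715 in Pr-LP, 617 in Pr-HP, 1655 in C4-LP and 1246 in C4-HP (1.74-fold). The factors of the response differed less. Xbp1 was at 901 against 1241 (1.38-fold), Atf4 at 1881 against 2025 (1.08-fold), Ddit3 at 358 against 422 (1.18-fold) and Atf3 at 199 against 188 (1.06-fold lower). The lectin chaperone calnexin (Canx) was at 1067 against 1074, a log2 ratio of 0.01.

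Many ER folding genes are known to carry the ER stress response element before their start, which is bound by the factors ATF6 and NF-Y. Its letters, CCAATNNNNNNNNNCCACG with any 9 bases between the outer parts, were searched on both strands in the 250 bases before the start of each gene in RefSeq (GRCm38.p6). They were found in 33 of 27025 windows (0.122%) and in 7 of the 31 windows that the table holds for the 36 list members (22.6%). The search was made after the list's values were seen. The windows of 5 genes are printed so that the element can be read beside the values of these genes, 4 from genes that were higher in C4-HP and the last from Canx, which had near-equal values. The outer letters of the element are in capitals, and where it lies on the opposite strand it reads CGTGG and then ATTGG.
Dnajc3: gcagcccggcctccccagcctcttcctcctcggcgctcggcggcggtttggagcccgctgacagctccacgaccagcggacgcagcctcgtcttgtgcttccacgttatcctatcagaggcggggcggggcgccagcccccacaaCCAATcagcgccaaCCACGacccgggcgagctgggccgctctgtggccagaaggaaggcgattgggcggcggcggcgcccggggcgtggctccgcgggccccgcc
Pdia6: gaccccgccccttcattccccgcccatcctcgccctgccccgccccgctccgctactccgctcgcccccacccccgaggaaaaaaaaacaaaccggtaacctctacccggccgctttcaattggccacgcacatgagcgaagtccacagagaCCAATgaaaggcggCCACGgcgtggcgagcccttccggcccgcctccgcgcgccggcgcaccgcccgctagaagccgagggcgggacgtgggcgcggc
Creld2: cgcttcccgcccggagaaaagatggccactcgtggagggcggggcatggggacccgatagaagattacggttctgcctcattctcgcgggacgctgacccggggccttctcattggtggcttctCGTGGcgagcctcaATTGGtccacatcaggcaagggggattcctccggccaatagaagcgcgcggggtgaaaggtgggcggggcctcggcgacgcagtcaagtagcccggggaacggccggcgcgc
Hspa5: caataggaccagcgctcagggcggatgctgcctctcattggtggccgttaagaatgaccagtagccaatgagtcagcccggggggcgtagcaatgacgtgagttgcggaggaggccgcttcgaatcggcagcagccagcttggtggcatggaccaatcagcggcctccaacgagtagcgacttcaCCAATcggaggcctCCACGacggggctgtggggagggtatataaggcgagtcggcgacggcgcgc
Canx: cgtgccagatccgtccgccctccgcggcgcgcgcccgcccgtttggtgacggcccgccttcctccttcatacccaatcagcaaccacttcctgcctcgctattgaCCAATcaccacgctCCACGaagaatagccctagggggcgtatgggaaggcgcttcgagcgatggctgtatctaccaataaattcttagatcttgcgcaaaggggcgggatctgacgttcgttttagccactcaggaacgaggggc
These windows are chr14:118937682-118937931 (+ strand), chr12:17266339-17266588 (+ strand), chr15:88819396-88819645 (+ strand), chr2:34771840-34772089 (+ strand) and chr11:50325674-50325923 (- strand). The element ended 86, 79, 107, 46 and 126 bases before the start in the same order. The other 2 members with a match were Hsp90b1 (log2 ratio 0.42) and Ero1b (0.23). The 7 members with a match had a median log2 ratio of 0.60, and the 24 without one had 0.37, among them the 3 with the largest ratios. The match describes these letters alone, and binding was not measured.

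Lipid synthesis genes leaned the other way. Of 28 measured genes of cholesterol and fatty acid synthesis, 22 were lower in C4-HP, where 6284 of all 12583 measured genes were. The median log2 ratio of -0.27 was the lowest of the 22 lists. More than 1.5-fold lower were 2 members (7.14%, against 2.71% of all genes), and none was higher by as much. Past 2-fold lower was 1 member, where 0.771% of all genes were. Only Scd1, the stearoyl-CoA desaturase, passed 2-fold, with 2516 in Pr-LP, 1375 in Pr-HP, 909 in C4-LP and 1073 in C4-HP (2.34-fold lower), and 2.59-fold with another probe set (1329 against 513), while the remaining one gave 261 against 249.6 (1.05-fold lower). Elovl5, an elongase of fatty acids, was at 3773 in Pr-LP, 1741 in Pr-HP, 2005 in C4-LP and 1971 in C4-HP (1.91-fold lower). Most others lay within 1.5-fold, among them Fdft1, squalene synthase (1064 against 733), and Fdps, farnesyl diphosphate synthase (2857 against 2160.0). In both genes with the large differences, Pr-LP was the highest population. Abca1, which exports cholesterol from cells, was 3.56-fold lower in C4-HP (495 in Pr-LP, 63.1 in Pr-HP, 164 in C4-LP and 139 in C4-HP) and 2.53-fold lower with another probe set.

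**Figure D4:**
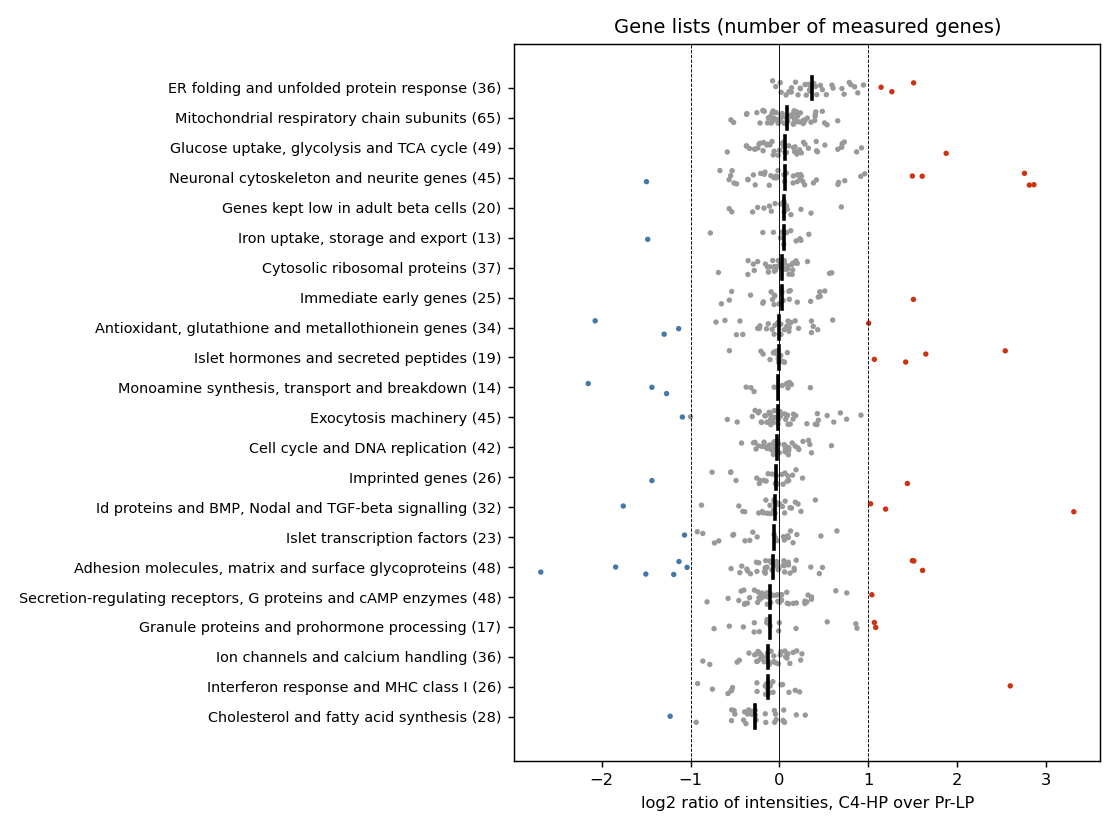
Each point is the log2 ratio of C4-HP over Pr-LP of 1 measured gene, in 22 gene lists ordered by their median (black bar), with red and blue points past 2-fold (dashed lines). The list of ER folding has the highest median (0.37) and that of cholesterol and fatty acid synthesis the lowest (-0.27), while the others lie between -0.13 and 0.08.

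Among genes of monoamine synthesis, transport and breakdown, 3 enzymes of synthesis were more than 2-fold lower in C4-HP. Ddc, the decarboxylase that makes dopamine and serotonin, had 4387 in Pr-LP, 1333 in Pr-HP, 150.4 in C4-LP and 988 in C4-HP, a 4.44-fold difference, with C4-LP lower still. A dim probe set of Ddc gave 1.24-fold (196 against 158). Th, tyrosine hydroxylase, was at 1944 in Pr-LP, 221 in Pr-HP, 2181 in C4-LP and 719 in C4-HP (2.70-fold lower), and Pts, which makes its cofactor tetrahydrobiopterin, at 333 in Pr-LP, 243 in Pr-HP, 172 in C4-LP and 138 in C4-HP (2.41-fold lower). Another probe set of Pts gave a log2 ratio of -0.05. These were 3 of 14 measured members of the list, where 0.771% of all genes were lower by as much. The other 11 lay within 1.5-fold, 7 members were above and 7 below a log2 ratio of 0, and the median was -0.01. Gad1, which makes the transmitter GABA, was at 231 in Pr-LP, 49.4 in Pr-HP, 46.1 in C4-LP and 45.6 in C4-HP, so that it was at least 3.44-fold lower in C4-HP and seen above the floor in Pr-LP only.

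Several epithelial and surface genes were lower in C4-HP. Cd9, a tetraspanin of the cell surface, had 465 in Pr-LP, 61.5 in Pr-HP, 68.1 in C4-LP and 72.4 in C4-HP (6.43-fold lower). Pr-LP alone was high. Cd81, a related tetraspanin, was at 949.9 in Pr-LP, 844 in Pr-HP, 438 in C4-LP and 265 in C4-HP (3.59-fold lower), lower in both clone 4 populations. Krt19, a keratin of simple epithelia, was at 223 in Pr-LP, 57.6 in Pr-HP, 57.6 in C4-LP and 56.4 in C4-HP, at least 3.32-fold lower. Esrp1, a splicing factor of epithelial cells, was at 251 in Pr-LP, 327 in Pr-HP, 43.1 in C4-LP and 45.4 in C4-HP, at least 3.74-fold lower and above the floor in the parental cells only. The tight junction claudins Cldn3 (228 in Pr-LP, 133 in Pr-HP, 82.9 in C4-LP and 80.3 in C4-HP) and Cldn4 (575 in Pr-LP, 259.9 in Pr-HP, 250.2 in C4-LP and 252 in C4-HP) were 2.83- and 2.28-fold lower. Epb41l5, a polarity protein, was 2.79- and 2.66-fold lower with 2 probe sets, while another gave 1.29-fold higher. Other epithelial genes were looked at after these values were seen. Krt18, the partner of Krt8 in simple epithelia, was at 181 in Pr-LP, 78.0 in Pr-HP, 88.4 in C4-LP and 63.3 in C4-HP, at least 2.69-fold lower in C4-HP, while the others looked at lay within 1.5-fold. Krt8 was at 1835 against 1765 (1.04-fold lower), Cdh1, E-cadherin, at 731 against 715 (1.02-fold lower) and Cldn7 at 840.3 against 958 (1.14-fold higher). Vim, vimentin of mesenchymal cells, was at 124 against 103 (1.20-fold lower). Of the 48 measured genes of adhesion, matrix and surface glycoproteins, 6 were more than 2-fold lower and 3 higher, against 0.771% and 0.62% of all genes. The 6 were Cd9, Cd81, Cldn3, Cldn4, Cd24a and Cd44, the hyaluronan receptor (209 in Pr-LP, 63.4 in Pr-HP, 421 in C4-LP and 95.4 in C4-HP, 2.19-fold lower). Higher were Nrcam, Emilin1, an elastin-associated matrix protein (203 in Pr-LP, 158 in Pr-HP, 1198 in C4-LP and 572 in C4-HP, 2.82-fold), and Edil3, a secreted integrin ligand (68.0 in Pr-LP, 1216 in Pr-HP, 371 in C4-LP and 194 in C4-HP, 2.85-fold).

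Iron and redox genes held further differences. Tfrc, the transferrin receptor, was lower in C4-HP with all 4 of its probe sets, by 1.71-, 2.26-, 2.50- and 3.60-fold, as it was in the control probe sets on each chip. The brightest gave 5473 in Pr-LP, 2642 in Pr-HP, 3462 in C4-LP and 3194 in C4-HP, with Pr-LP the highest population. Slc40a1, the iron exporter ferroportin, was also lower (1824 in Pr-LP, 1078 in Pr-HP, 245 in C4-LP and 653 in C4-HP, 2.79-fold), and the other members of the iron list lay within 1.5-fold. Nqo1, a quinone reductase, was at 302 in Pr-LP, 432 in Pr-HP, 50.1 in C4-LP and 71.8 in C4-HP (4.20-fold lower), and at least 2.02-fold lower with another probe set, both high in the parental cells. Gsto1, a glutathione transferase, was 2.46-fold lower (239.5 against 97.5) and Txnip, the inhibitor of thioredoxin, 2.19-fold lower (748 against 341). Srxn1, sulfiredoxin, was 2.00-fold higher (240.1 against 481). Another probe set of Txnip and of Srxn1 gave log2 ratios of -0.07 and -0.05. So 3 of 34 measured antioxidant genes were lower and 1 higher past 2-fold, where 0.771% and 0.62% of all genes were.

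The imprinted gene Ndn, necdin, was higher with 2 probe sets (3.42- and 2.71-fold). The values were 171 in Pr-LP, 60.2 in Pr-HP, 734 in C4-LP and 585 in C4-HP with the one that differed more, so that both clone 4 populations were high. Of 26 measured imprinted genes, Ndn was the one past 2-fold higher and Th the one lower, where 0.62% and 0.771% of all genes were, and 23 lay within 1.5-fold (88.5%, against 94.7% of all genes). Nr4a2, an orphan nuclear receptor and immediate early gene, was 2.84-fold higher (82.0 in Pr-LP, 155 in Pr-HP, 273 in C4-LP and 233 in C4-HP), the only one of 25 such genes past 2-fold, and 23 lay within 1.5-fold (92.0%). In the interferon list, Trim12c, a TRIM family protein, was 6.04-fold higher (96.7 in Pr-LP, 80.4 in Pr-HP, 52.7 in C4-LP and 584 in C4-HP) and C4-HP stood alone. It was the only one of 26 measured members past 2-fold, and 23 lay within 1.5-fold (88.5%). The class I heavy chains H2-K1 (3942 against 2084) and H2-D1 (3393 against 2012) were 1.89- and 1.69-fold lower.

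Genes of general cell functions lay within 1.5-fold about as often as all genes, of which 94.7% did. Of 42 measured genes of the cell cycle and DNA replication, 41 did so (97.6%), as did 64 of 65 respiratory chain subunits (98.5%) and 35 of 37 cytosolic ribosomal proteins (94.6%). None of these, and none of 20 genes that adult β cells keep low, passed 2-fold. The medians of these 4 lists lay between -0.02 and 0.08.

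The remaining probe sets past 3-fold belong to genes of varied function. Higher in C4-HP were Cryba2, a β crystallin (311 in Pr-LP, 1126 in Pr-HP, 639.8 in C4-LP and 1724 in C4-HP, 5.55-fold), and Sgip1, an adaptor of endocytosis (1496 in Pr-LP, 1012 in Pr-HP, 2094 in C4-LP and 7388 in C4-HP, 4.94-fold). Sgip1 had the highest C4-HP value of the probe sets past 3-fold, and its other probe sets had log2 ratios of -0.02 and 0.01. Slc39a8, a zinc and metal importer, was 3.81-fold higher (119.7 in Pr-LP, 892 in Pr-HP, 357 in C4-LP and 455 in C4-HP), and 2.46-fold with another probe set. Flrt3, a membrane protein that binds fibroblast growth factor receptors, was 2.94- and 2.61-fold higher with 2 probe sets and at least 1.87-fold with another, while the brightest of them gave 3109 against 3075 (1.01-fold lower). Between 3.01- and 5.48-fold were AI662270, Gm4354, Slc2a13, a myo-inositol transporter, Foxp2, a forkhead factor, Upk3a, a uroplakin, Iyd, a deiodinase of iodotyrosines, Cog8, of a Golgi tethering complex, and Gkap1, Tmem45a and Tram1l1. For Slc2a13, Foxp2, Iyd and Tmem45a the folds are lower bounds, since Pr-LP lay under the floor.

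On the lower side Fam151a had the largest ratio with the floor applied, with 1225 in Pr-LP, 276 in Pr-HP, 149 in C4-LP and 151 in C4-HP (8.13-fold lower in C4-HP), so that Pr-LP alone was high. Hsd17b11, a steroid dehydrogenase of lipid droplets, was at 358 in Pr-LP, 261 in Pr-HP, 136 in C4-LP and 64.4 in C4-HP, at least 5.32-fold lower. Aqp4, a water channel, was lower with 3 probe sets, by at least 4.80-, 3.29- and 2.55-fold, and the first gave 282 in Pr-LP, 58.3 in Pr-HP, 78.8 in C4-LP and 48.0 in C4-HP. Gatm, which makes the precursor of creatine, was lower with 2 probe sets on different chips by 3.43- and 3.39-fold (1329.7 in Pr-LP, 1046 in Pr-HP, 1210.0 in C4-LP and 388 in C4-HP), and C4-HP stood alone. St6gal1, a sialyltransferase, was lower in both high-passage populations (313 in Pr-LP, 105 in Pr-HP, 302 in C4-LP and 86.4 in C4-HP, 3.62-fold), and another probe set gave 1.32-fold. Mreg, melanoregulin, was 3.91- and 2.34-fold lower with 2 probe sets. Lrpprc, which binds mitochondrial RNA, was at 2364 in Pr-LP, 1285 in Pr-HP, 1165 in C4-LP and 718 in C4-HP (3.29-fold lower). Zdhhc2, a palmitoyltransferase, was at 806 in Pr-LP, 193 in Pr-HP, 338 in C4-LP and 226 in C4-HP (3.57-fold lower), and its other probe sets gave 1.74-fold lower and 1.01-fold higher. Rbp4, the retinol carrier, Arhgap36 and Atrnl1 were at least 3.67-, 4.22- and 3.41-fold lower. Between 3.01- and 3.39-fold lower were Cryl1, Rab37, Akap12, Rragd, Syde2, Fmnl2, Rnf182 and Fam126a. For Akap12 another probe set gave equal values (241 against 241). Crebrf, a regulator of the CREB3 factor, Frzb, a secreted inhibitor of Wnt, and Enah, an actin regulator, were each more than 2-fold lower with 2 probe sets, by 2.34- and 2.39-fold, 2.41- and 2.42-fold, and 2.29- and 2.39-fold. The other measured probe sets of Enah had log2 ratios between -0.54 and 0.08.

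Probe sets of the same gene give a check on single probe sets, though not on the cultures. Of the 26 genes named by the annotation that were more than 3-fold higher, 15 had other measured probe sets. Of these 22 other probe sets, 15 were higher in C4-HP and 5 more than 2-fold, with a median log2 ratio of 0.43. Of the 28 lower genes, 15 had 19 other probe sets, of which 16 were lower and 8 more than 2-fold, with a median of -0.80. Among genes named above, another probe set lay closer to 0 for Cryl1 (log2 ratio 0.00), Fam126a (-0.24), Slc2a13 (-0.18) and Edil3 (0.13). It was on the same side but within 2-fold for Kdelr3 (0.73), Dnajb9 (0.55), Pdyn (0.51) and Pde4b (0.56).

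The other populations show how the 68 probe sets were distributed. On the log2 scale, C4-LP and Pr-HP were each assigned to the nearer of C4-HP and Pr-LP. Of the 36 higher probe sets, C4-HP stood alone in 10, as for Slc2a2, Sgip1 and Trim12c. C4-LP sided with C4-HP and Pr-HP with Pr-LP in 9, as for Ttyh1, Ttr and Ndn. Pr-HP sided with C4-HP and C4-LP with Pr-LP in 7, as for Nefl and Cryba2. Pr-LP stood alone in 10, as for Id1, Gcg and Dcx. Of the 32 lower probe sets, Pr-LP stood alone in 21, among them Fam151a, Cd9, Tfrc and Krt19. C4-HP stood alone in 3, of Gatm and Fmnl2, both clone 4 populations differed from the parental ones in 7, and both high-passage populations from the low-passage ones in 1, of St6gal1. The probe sets were chosen on Pr-LP and C4-HP, so that a population at the middle falls to either side, and these counts are a description. Probe sets chosen for an extreme value in Pr-LP or C4-HP also tend to show that population alone. The same shares over all measured probe sets were not computed, so whether these counts are unusual is not known.

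C4-LP and Pr-HP form the only pair that shares no array with this comparison. Between them the clone contrast runs the same way and the passage contrast the opposite way. Of the 36 higher probe sets, 10 were more than 2-fold higher in C4-LP than in Pr-HP, where 1.48% of all measured probe sets were, and 8 were more than 2-fold lower, where 1.1% were. Of the 32 lower ones, 7 were more than 2-fold lower in C4-LP and 3 higher. The median log2 ratios of C4-LP over Pr-HP were 0.01 and -0.04.

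Most markers of other cell types lay within 2-fold, with exceptions in the α-cell, neuron and duct lists. The β-cell markers Ins1, Ins2, Iapp, Pdx1, Slc2a2 and G6pc2 were above 100 units in both, and G6pc2 was at 1765 against 1399 (1.26-fold lower). Of the measured markers, none of 5 of fibroblasts, 4 of endothelial cells, 4 of acinar cells, 4 of δ and PP cells or 3 of macrophages and leukocytes passed 2-fold. The leukocyte markers Ptprc and Lyz2 and the endothelial marker Tek lay under the floor in both. Krt19 was the 1 duct cell marker past 2-fold among 6 named by the annotation, where 0.771% of all genes were lower by as much. Spp1, osteopontin, named from the supplement, was at 304 in Pr-LP, 3041 in Pr-HP, 798 in C4-LP and 109.6 in C4-HP (2.77-fold lower). The α-cell markers Gcg and Ttr were higher, as given above. Among the 8 neuron markers Nefl passed 2-fold, where 0.62% of all genes did, and 3 were more than 1.5-fold higher (37.5%, against 2.58% of all genes). The summed level was 4902 units in Pr-LP and 7266 in C4-HP, a sum over unlike probe sets in which Nefl went from 225 to 1637. Of the 8 markers, 6 were higher and 2 lower, Map2 (1217 against 1008) and Elavl4 (283 against 231). Stmn2, which marks neurons, was at 249.8 against 299.5 (1.20-fold).

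Stretches of neighbouring genes shifted by small amounts on some chromosomes. The measured genes with a position in the RefSeq annotation were put in its order and cut into windows of 40 neighbours within a chromosome. Genes of the Y chromosome, the mitochondrial genome and unplaced sequence were left out, as were short windows at chromosome ends. Of 314 windows, 17 had a median log2 ratio above 0.1 and 7 one below -0.1, a limit set after the values were seen. Most lay in a few runs, which were thus chosen by this same ratio. Their counts of higher or lower genes, medians and shares past 2-fold in C4-HP follow in part from that choice. They are no separate result. On chromosome 13 the 240 genes from Barx1 to Htr1a had a median of 0.18, and 194 of them were higher in C4-HP. The median of the same genes was 0.10 in C4-LP and 0.10 in Pr-HP, both over Pr-LP. On chromosome 2 the 191 genes from Tgif2 to Polr3k had a median of 0.14, with 135 higher, and -0.03 and -0.02 in C4-LP and Pr-HP. The 148 genes from Dag1 to Ppp2r3d on chromosome 9 had a median of -0.17, with 115 lower, and -0.01 and -0.09 in C4-LP and Pr-HP. On the X chromosome the 80 genes from Magee1 to Kdm5c had a median of 0.10. Among the brighter genes, those above the median level of each run, the medians were 0.33 on chromosome 13, 0.24 on chromosome 2 and -0.31 on chromosome 9. Past 2-fold higher were 9 genes of the run on chromosome 13 (3.75%) and 5 on chromosome 2 (2.62%), where 0.62% of all genes were, and past 2-fold lower were 3 on chromosome 9 (2.03%) and 2 on chromosome 2 (1.05%), where 0.771% were. Among them was Vapb on chromosome 2, a membrane protein of the ER, with 1384 in Pr-LP, 2319 in Pr-HP, 2161 in C4-LP and 3209 in C4-HP (2.32-fold), and 2.21-fold with another probe set, while the others gave 1.22-fold higher and 1.05-fold lower. The cause of these shifts was not tested.

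**Figure D5:**
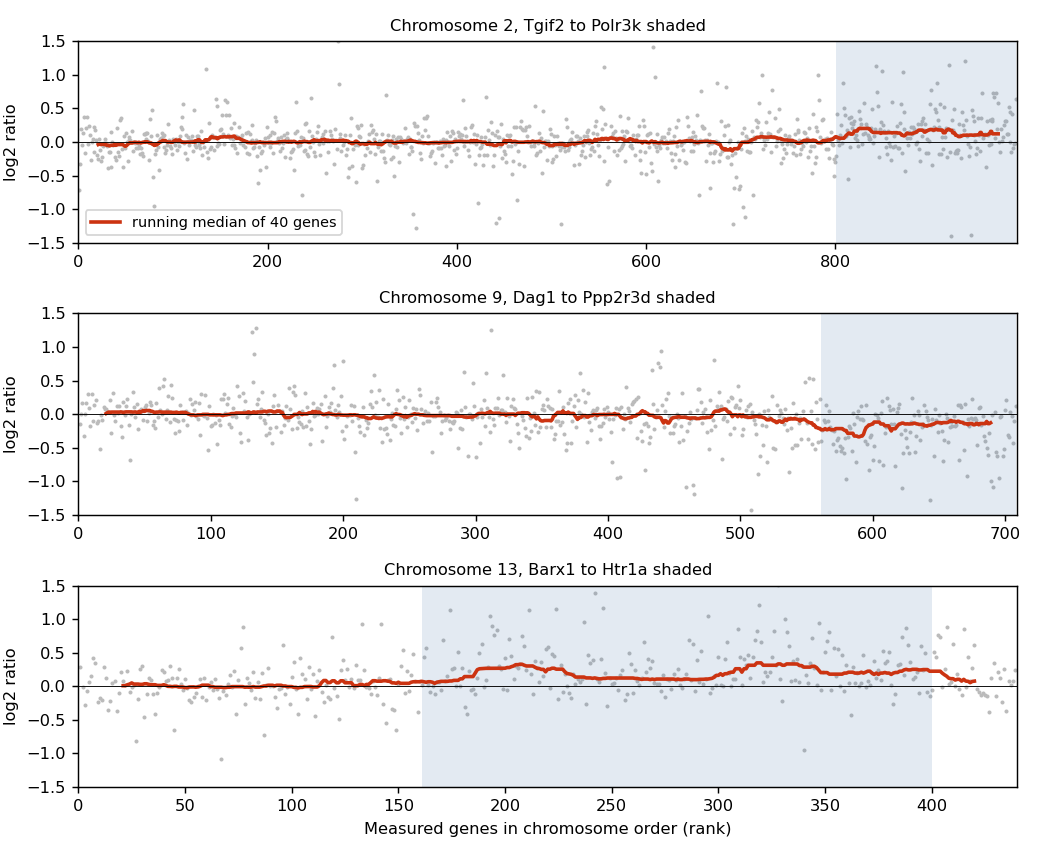
Log2 ratio of C4-HP over Pr-LP for the measured genes of chromosomes 2, 9 and 13 in chromosome order, 1 grey point a gene (a few genes lie outside the drawn range), with the running median of 40 genes in red. In the shaded runs the medians are 0.14, -0.17 and 0.18, while elsewhere on these chromosomes the red line stays near 0.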

How the data were processed

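Total RNA of 4 MIN6 populations was converted to biotin-labelled cRNA and hybridised to the 3 Affymetrix MG-U74 version 2 chips. The authors deposited 1 linear intensity for each probe set and array, from GeneChip 5.1 software according to the methods. The normalization between arrays, not given in the sources used here, was kept, and the deposited values were used unscaled. A method that compresses low values would make the folds of dim probe sets too small, which was not tested. Probe sets were named from the array annotation, with symbols checked against RefSeq. Of 36701 probe sets apart from 198 controls, 29131 carry 1 symbol, 724 several and 6846 none. From the study's tables or supplement, 6 without a name were named. The Ins1 probe sets are among them, and the study printed values of that gene without probe set names. Ratios, lists and windows were computed with pandas 2.3.3 and numpy 2.4.6 in Python 3.11.15, and checked on simulated data. Nkx6-1 and Pcsk2 carry no probe set name here and were not analysed. Genes were named where they had the largest ratios, where several probe sets passed 2-fold, where a list member passed 3-fold, or from a set of β-cell genes. That set included genes that the study listed from these same arrays. The members and lists were chosen with earlier results of these data known. The number of arrays limits the precision.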

Additional observations from a re-analysis of the deposited data

How the results depend on the processing

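Each count was recomputed with the floor at 1.0 unit or at the 40th percentile of the chip, with a minimum of 50 or 200 units, after quantile normalization, with the median log2 ratio set to 0, without the probe sets whose names mark possible cross-hybridisation, and, for genes, with the median over the probe sets of a gene. The probe sets more than 3-fold higher in C4-HP numbered 24 to 40 (36 as reported) and those lower 18 to 36 (32 as reported). The lowest of these, 18, came with the floor at the 40th percentile, which raises more low values and so shrinks ratios against them. Genes past 2-fold numbered 64 to 80 (78 as reported) and 75 to 105 (97 as reported). No named gene past 2-fold changed direction under these settings, and the 40th percentile moved 43 of 165 log2 ratios of named probe sets by more than 0.12, the spread of the controls. The median of the ER folding list lay between 0.35 and 0.40 and that of cholesterol and fatty acid synthesis between -0.31 and -0.26. The granule list went from -0.11 to 0.00 with the median over the probe sets of a gene, and the other list medians that changed sign lay within 0.1 of 0. The share of windows of neighbouring genes with a median beyond 0.1 was 7.64% with 40 genes, 11.8% with 20 and lower with 80, and the sizes of 20 and 80 were chosen after seeing the data. No paired analysis was possible because each population has 1 array per chip, and for the same reason no array could be left out. Every ratio rests on 1 array a side, and dim probe sets have the least signal over background.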

Other observations

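Among the probe sets more than 3-fold higher in C4-HP, 6 carry no gene name in the annotation used here. The largest, 160799_at, was at 115 in Pr-LP, 108 in Pr-HP, 1117 in C4-LP and 959 in C4-HP (8.35-fold), so that both clone 4 populations were high. C4-HP stood alone for 92402_at, with 253 in Pr-LP, 156 in Pr-HP, 171 in C4-LP and 1750 in C4-HP (6.91-fold). The brightest, 93972_at, was at 1854 in Pr-LP, 3466 in Pr-HP, 2235 in C4-LP and 6509 in C4-HP (3.51-fold). The others, 109476_at, 139508_at and 136561_f_at, were 3.93-, 3.27- and 3.15-fold higher.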
